A study of Homo sapiens with 6 samples.

Results

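The nuclear-encoded subunits of oxidative phosphorylation (OXPHOS) were followed in Huh7 cells that overexpressed transketolase (TKT). Members were the rows of the count table with a symbol of the NDUFA, NDUFB, NDUFC, NDUFS or NDUFV series, SDHA to SDHD, the UQCR series, the subunit series COX4I, COX5, COX6, COX7 and COX8, the ATP5F and ATP5M series, and CYC1 and CYCS. Symbols ending in P and a number, as pseudogenes do, were dropped. This gave 76 of the 22077 genes of the table, of which 35 belonged to complex I, 4 to complex II, 10 to complex III, 13 to complex IV and 13 to ATP synthase, with CYCS, which encodes cytochrome c, standing by itself. Subunit genes outside these rows are not members, and are described below only as lists of their own. OXPHOS takes electrons from NADH and succinate through complexes I to IV to oxygen, pumps protons across the inner mitochondrial membrane on the way, and lets ATP synthase use the proton gradient to make ATP. Most subunits are encoded in the nucleus and a small set, including the cores of several proton pumps, in mitochondrial DNA, so that complexes I, III and IV and ATP synthase join products of both genomes. Hepatocytes are rich in mitochondria, and their OXPHOS genes are known to be transcribed under nuclear respiratory factors and their coactivators.

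Total RNA was sequenced from 3 TKT-overexpressing and 3 vector control cultures to ask how TKT overexpression changes gene expression in hepatocellular carcinoma cells. Huh7 cells derive from a human liver carcinoma. The sample labels carry a close spelling of the name with the genotypes over-expression and wt, and the results of the study name Huh7 for the sequencing. The methods of the study name HCCLM3 instead. According to the methods, cells were transfected with a TKT expression plasmid that carries GFP and puromycin resistance (pTSB02-GFP-PURO) and then selected. The labels call the replicates biosamples and do not say that they were grown separately, so the p-values measure the spread between these samples, which may be technical. The libraries held 31618541, 30148788 and 33815829 counts in the control cultures and 37096156, 31188058 and 32406994 counts on overexpression. Values are given as CPM (counts per 1000000 counts of a library, after scaling by TMM), or as the deposited FPKM, which also divides by gene length.

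TKT, the introduced gene, stood at 497, 469 and 515 CPM in control cultures and 9402, 9549 and 9392 CPM on overexpression. The conditions did not overlap (p = 0.1 by a two-sided exact permutation test, which can go no lower with 3 against 3), and the labels hold for all 6 libraries by this gene (log2 fold change 4.26, standard error 0.04, adjusted p = 1.15e-25, edgeR). Of 16 hepatocyte markers, 15 passed the expression filter. Their summed level was 22403, 22369.8 and 22836 CPM in control cultures and 23148, 23559.6 and 23255 CPM on overexpression, led by AFP with a mean of 8489 CPM. Among the markers 4 were higher on overexpression, led by the fibrinogen genes FGB (0.50) and FGA (0.50) on the log2 scale, and 2 were lower, HNF4A (-0.15) and APOA2 (-0.13). HNF4A was called in 15 of 17 alternative settings and APOA2 in 10. The exception among the markers was APOB, the main apolipoprotein of liver lipoproteins, with a mean of 2.33 counts per library.

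Of the 76 members, 71 passed the expression filter of edgeR and were tested with 14162 genes in all. No member was higher on TKT overexpression and 6 were lower at an adjusted p-value under 0.05, beside 5.69% of all tested genes higher and 4.94% lower. The members lower were ATP5MC1, ATP5MC3 and ATP5F1C of ATP synthase, NDUFV1 and NDUFS5 of complex I, and UQCRC1 of complex III. These 6 make up 8.45% of the tested members. Among genes with a mean of at least 5 CPM, the 6 were 9.23% of 65 members, beside 6.95% of 9909 genes. At an unadjusted p under 0.05, 2 members were higher, COX6A1 and SDHB, beside 11.8% of all tested genes, and 16 were lower, beside 12%. DESeq2, which gave an adjusted p to 66 members and not to SDHB, called 0 of them higher and 10 lower, beside 6.45% and 6.88% of 11360 genes. In limma, 0 were higher with 1 added to the FPKM, beside 3.50% of all tested genes, and 1, SDHB, with 0.1 added, beside 3.49%. With the thresholds of the study, which ask in addition for an absolute log2 fold change over 1, edgeR and DESeq2 both called 0 members, beside 0.727% of all tested genes in edgeR. At an unadjusted p with the same fold, 1 member, SDHB, was past the limits, beside 1.46% of all tested genes.

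The shift of the members was small and mostly to the lower side. Their median log2 fold change was -0.05, against 0.00 over all tested genes, and 54 of 71 members lay below 0 against 7050 of 14162 genes. The largest called change, that of ATP5MC1, was -0.33. In 11 members (15.5%) every overexpressing culture was below every control culture, beside 13.9% of all tested genes, a share close to that of the members. These were the 6 called members with ATP5F1A, ATP5F1B, NDUFB1, NDUFS7 and UQCRQ. With at least 5 CPM the shares were 16.9% of members and 17.8% of genes. In 3 members (4.23%), COX6A1, NDUFS1 and SDHB, every overexpressing culture was above, beside 14.1% of all tested genes. The median of the members relative to the control mean was 0.01, -0.06 and 0.05 on the log2 scale in control cultures and -0.05, -0.01 and -0.09 on overexpression. Control replicate 2 thus lay below overexpression replicates 1 and 2, and the conditions overlapped.

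**Figure D1:**
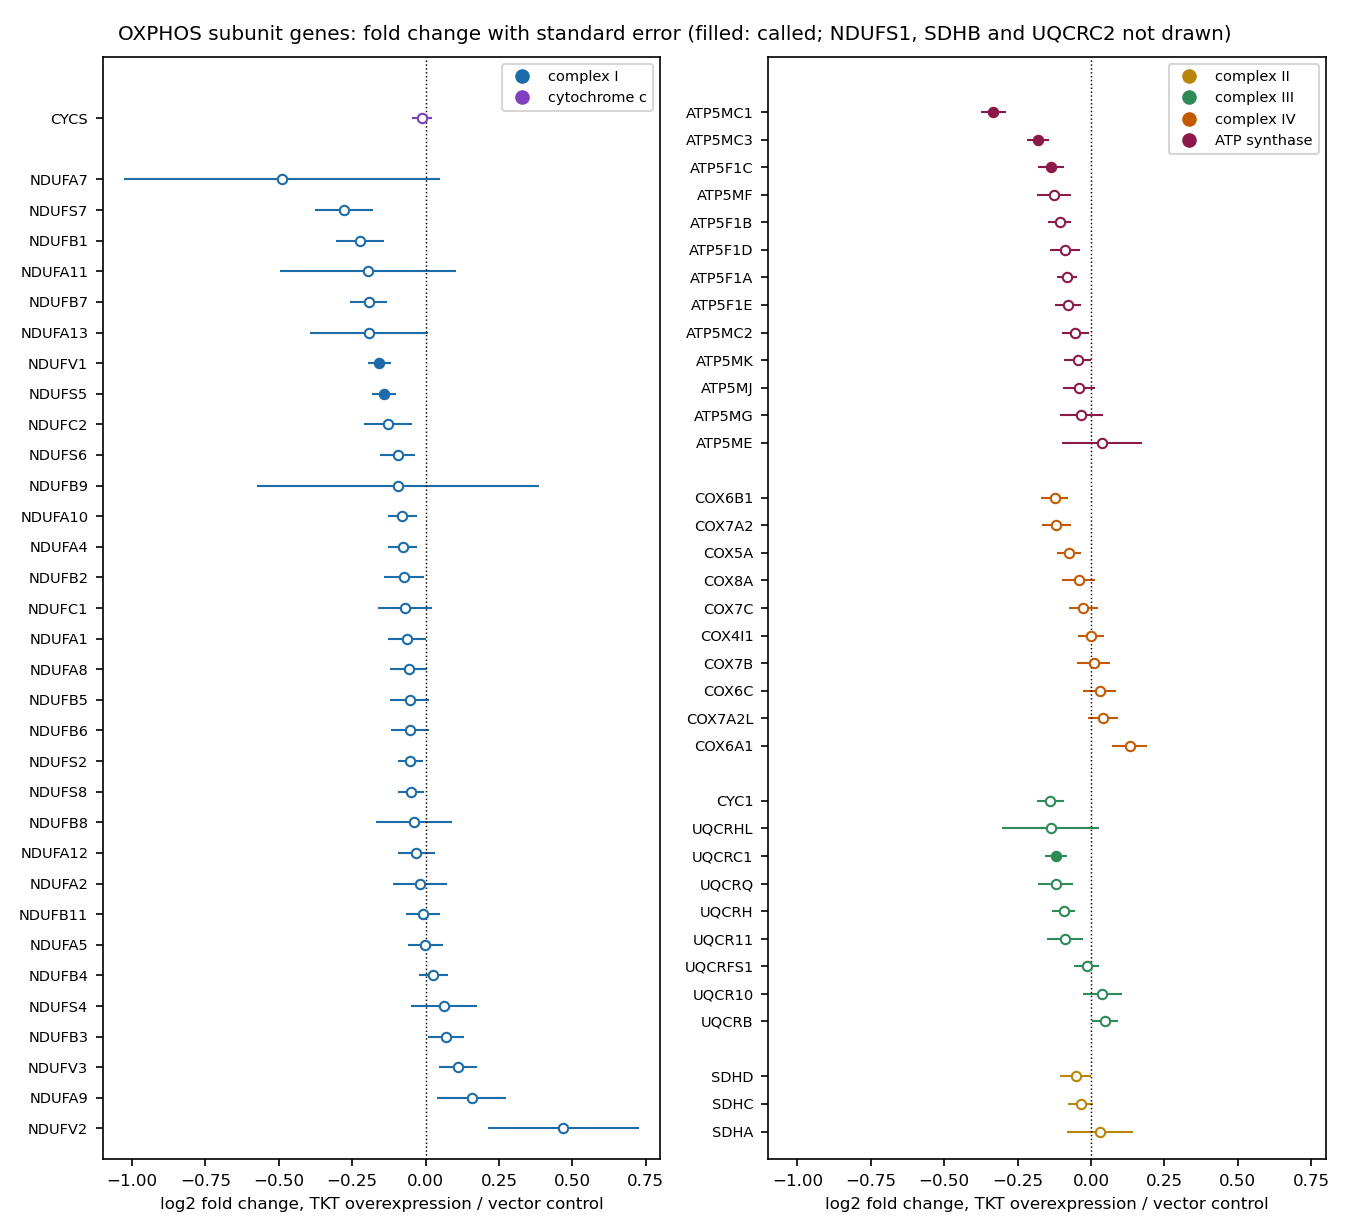
Log2 fold change of each tested OXPHOS subunit gene, TKT overexpression over vector control, from edgeR on 3 cultures a condition, with the standard error as a bar and filled points for genes called at an adjusted p under 0.05. Most points lie slightly left of 0, with ATP5MC1 at -0.33, and NDUFS1, SDHB and UQCRC2, whose standard errors exceed those of the others, are not drawn.

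The number of lower members rested on the cultures included. Leaving out control replicate 1 gave 2 lower members, leaving out control replicate 2 gave 12, and leaving out control replicate 3 gave 3, beside 2.48%, 5.26% and 3.20% of all tested genes lower. Leaving out overexpression replicates 1, 2 and 3 in turn gave 3, 8 and 2, beside 2.31%, 4.02% and 3.08%. ATP5MC1 and ATP5MC3 were called lower in each of these fits. The median log2 fold change of the members was -0.08 without control replicate 2, -0.08 without overexpression replicate 2 and -0.03 without overexpression replicate 3. Summed over all 76 members, the level was 9983, 9557 and 10203 CPM in control cultures and 9407, 9704 and 9083 CPM on overexpression, so that control replicate 2 lay below overexpression replicate 2. Within each condition the summed members kept the order of the summed ribosomal protein genes. In control cultures replicate 2 was lowest and replicate 3 highest for the OXPHOS members, the mitochondrial and the cytosolic ribosomal proteins, and on overexpression replicate 3 was lowest and replicate 2 highest for all of these lists. The cytosolic ribosomal proteins summed to 67029.5, 62326 and 69194 CPM in control cultures and 66229, 69099 and 63338 CPM on overexpression. The part of this spread in the results was not tested. In bulk RNA, fewer cells expressing a gene and less of its RNA per cell cannot be told apart.

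**Figure D2:**
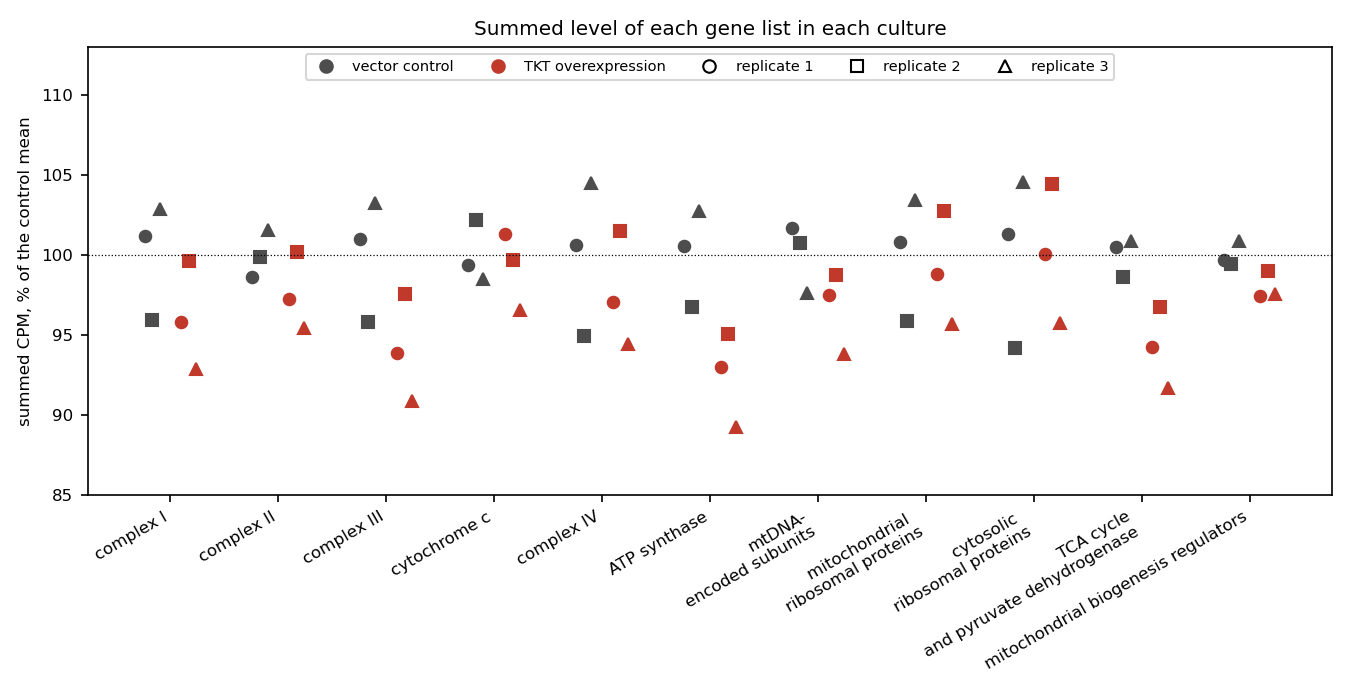
Summed CPM of each complex and of related gene lists in every culture, as a percentage of the control mean, with grey symbols for vector control, red symbols for TKT overexpression and symbol shapes for the replicate number. The axis starts at 85%. ATP synthase, the TCA cycle list and, by a small distance, the biogenesis regulators have all overexpressing cultures below all control cultures, and in the ribosomal protein lists the conditions overlap.

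Complex I, the NADH dehydrogenase at the entry of the chain, had 33 tested members with a median log2 fold change of -0.06, and 26 of them lay below 0. That median was -0.09 without control replicate 2, and -0.03 and -0.03 without replicate 3 of the control and of the overexpressing cultures. NDUFV1, the flavoprotein that binds NADH, lies at chr11:67605653-67612554 (plus strand) of GRCh38 in GENCODE 29. Its levels were 399.9, 377 and 418 CPM in control cultures and 365, 363 and 344 CPM on overexpression. All overexpressing cultures were below all control cultures (log2 fold change -0.16, standard error 0.04, adjusted p = 0.0137 in edgeR). NDUFV1 was called in 11 of 17 alternative settings and in 3 of 6 fits with a single library left out. NDUFS5, an accessory subunit of the membrane arm at chr1:39026318-39034636 (plus strand), had 192, 187 and 187 CPM in control cultures and 170.3, 176 and 167 CPM on overexpression. Its conditions were separate as well, with the control cultures close to each other (log2 fold change -0.14, standard error 0.04, adjusted p = 0.0244). The call of NDUFS5 held in 13 of 17 alternative settings and in 3 of 6 fits with a single library left out. Outside the called members, NDUFB7, an accessory subunit, was at -0.19 on the log2 scale (standard error 0.06, edgeR adjusted p = 0.0713, called lower in 6 of 17 alternative settings, DESeq2 among them) and NDUFS7, a core subunit that carries an iron-sulfur cluster, -0.28 (adjusted p = 0.0803). The highest level per length belonged to NDUFS5 with 327 FPKM and NDUFB7 with 270.5 FPKM over the 6 cultures, against a median of 11.5 FPKM over the tested members of the complex. Above 0 lay, among others, NDUFA9, an accessory subunit (0.16, adjusted p = 0.467), and NDUFV3, a small subunit beside NDUFV1 (0.11, 0.321), neither of them called. NDUFA4 is grouped here by its symbol, although its protein is known as a component of complex IV, and its log2 fold change was -0.08.

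NDUFS1, the largest core subunit of complex I and a carrier of iron-sulfur clusters, varied more than its partners. It had 203, 1288 and 1046 counts in control cultures and 2451, 1601 and 2262 counts on overexpression. Control replicate 1 was far below the other control cultures, and the conditions did not overlap. The log2 fold change of 1.22 had a standard error of 0.69 (edgeR adjusted p = 0.399). NDUFS1 was thus not called, although its fitted change was larger than that of any called member. The size of this change depends on control replicate 1, at 6.46 CPM beside 42.4 and 31.2 CPM in the other control cultures.

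Complex II, succinate dehydrogenase, links the tricarboxylic acid (TCA) cycle to the chain and is the only complex with all subunits encoded in the nucleus. Its 4 members were tested, 0 were called by edgeR and 0 by DESeq2, which gave no adjusted p for SDHB. An unadjusted p under 0.05 in edgeR was found for 1, SDHB. The median log2 fold change was 0.00, with either sign when single libraries were left out. SDHC and SDHD, which anchor the enzyme in the membrane, had log2 fold changes of -0.04 and -0.05. SDHA, the flavoprotein, had 0.03. SDHB, the iron-sulfur subunit, had 4, 2 and 5 counts in control cultures and 15, 12 and 12 counts on overexpression. Its conditions did not overlap, but its log2 fold change of 1.72 (standard error 0.70) was not past the threshold in edgeR (adjusted p = 0.129), and only limma with 0.1 added to the FPKM called it. The enzyme holds a single copy of each subunit, yet the mean levels per length were 0.102 FPKM for SDHB, 1.22 for SDHA, 21.6 for SDHD and 75.9 for SDHC. The value of SDHC rests on an implied gene length of 1.91 kb, whereas its exons in GENCODE 29 cover 14160 bases. Near-identical copies can share the reads of SDHA, and 3 rows named as its pseudogenes held 2508 counts over the 6 libraries against 2099 for SDHA itself.

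Complex III passes electrons from ubiquinol to cytochrome c. Its 10 members had a median log2 fold change of -0.11, with 8 below 0 and 1 called. The median was -0.05 without control replicate 1, -0.07 without control replicate 3 and -0.06 without overexpression replicate 3. UQCRC1, a core protein of the complex at chr3:48599002-48610976 (minus strand), had 439.9, 439 and 471 CPM in control cultures and 421, 419.7 and 401 CPM on overexpression. The overexpressing cultures were all lower, with a narrow gap to the control cultures (log2 fold change -0.12, standard error 0.04, adjusted p = 0.0419 in edgeR). UQCRC1 was called in 8 of 17 alternative settings and in 1 of 6 fits with a single library left out. CYC1, which encodes cytochrome c1, stood at 320.4, 302 and 345 CPM in control cultures and 295, 305 and 279 CPM on overexpression. Overexpression replicate 2 exceeded control replicate 2, and CYC1 was not called by edgeR (log2 fold change -0.14, standard error 0.05, adjusted p = 0.0634), though DESeq2 called it lower. Its log2 fold change was -0.09 without control replicate 3 (edgeR adjusted p = 0.265), and it was called lower without control replicate 2 (-0.18, 0.00528) and without overexpression replicate 2 (-0.17, 0.0465). UQCRH, the hinge protein, had a log2 fold change of -0.09 (adjusted p = 0.143), and UQCRFS1, the Rieske iron-sulfur protein, -0.01. UQCRHL, an intronless relative of UQCRH, held 2.43 FPKM against 157 FPKM for UQCRH. Its value is uncertain, since these copies may share reads, which was not measured.

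UQCRC2, the partner of UQCRC1 in the core of complex III, differed between cultures of the same condition. It had 1130, 44 and 54 counts in control cultures and 77, 731 and 34 counts on overexpression. Control replicate 1 and overexpression replicate 2 were high and the other 4 cultures low, irrespective of TKT. Among the tested genes with a mean of at least 1 CPM, 0.597% had a highest CPM over 10 times the lowest within a condition, and UQCRC2 was the single member of 68 at this level. The log2 fold change of -0.55 carried a standard error of 1.90 (edgeR adjusted p = 0.909), the largest error of any tested member.

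Cytochrome c, the soluble carrier between complexes III and IV and a trigger of apoptosis when released, was at the same level in both conditions within the error of the fit. CYCS had 405, 416 and 401 CPM in control cultures and 413, 406 and 393 CPM on overexpression. The cultures of both conditions were interspersed and CYCS was not called (log2 fold change -0.01, standard error 0.04, adjusted p = 0.888, edgeR). The standard error of CYCS was among the smallest of the members, whose median standard error was 0.06.

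Complex IV, cytochrome c oxidase, reduces oxygen. Of its 13 members 10 were tested and 0 were called by edgeR, DESeq2 or limma, with 1 higher and 2 lower at an unadjusted p under 0.05. On the log2 scale 5 lay below 0 and the median was -0.01, again with either sign when single libraries were left out. COX4I1, a subunit that binds early in assembly, had 379.8, 342 and 369 CPM in control cultures and 361, 384 and 346 CPM on overexpression. The ranges of both conditions nearly coincided (log2 fold change 0.00, standard error 0.04, adjusted p = 0.995). COX6A1 had 40.4, 37.9 and 40.9 CPM in control cultures and 42, 46.4 and 42.3 CPM on overexpression, with each overexpressing culture above each control culture, but it was not called (log2 fold change 0.13, edgeR adjusted p = 0.181, and 0.09 without overexpression replicate 2). A pseudogene row, COX6A1P2, held 11.4% as many counts as COX6A1, and any reads shared between them cannot be resolved here. COX6B1 (-0.12) and COX7A2 (-0.12) were lowest in the complex on the log2 scale, and overlapped between conditions. Without control replicate 2 edgeR called both lower, COX6B1 at -0.18 (adjusted p = 0.0103) and COX7A2 at -0.16 (0.0385), and without control replicate 3 COX7A2 was at -0.07. The tissue forms of these subunits were near the floor. COX4I2, the lung form, held 2 counts over all 6 libraries, COX7A1, the muscle form, 37 and COX6B2, the testis form, 42, and these did not pass the filter. By FPKM, COX7A2 made up 99.5% of its pair with COX7A1.

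ATP synthase turns the proton gradient into ATP by rotating a ring of c subunits in the membrane, which drives the gamma subunit within the catalytic head. It held 3 of the 6 called members, 12 of its 13 members lay below 0, and their median log2 fold change was -0.08. The 3 were 23.1% of its members, beside 4.94% of all tested genes lower and 6.95% of those with at least 5 CPM. In 5 members (38.5%) every overexpressing culture was below every control culture, beside 13.9% of all tested genes and 17.8% with at least 5 CPM. With single libraries left out, the median ran from -0.10 to -0.06. Summed over the complex, the level was 3779, 3634 and 3862 CPM in control cultures and 3495, 3572 and 3354 CPM on overexpression. The summed conditions did not overlap. ATP5F1B, the catalytic beta subunit, had the highest level per length of all tested members with 641 FPKM, and 1506, 1432 and 1547 CPM in control cultures and 1414, 1428 and 1324 CPM on overexpression. Its lower values on overexpression were not past the threshold (log2 fold change -0.11, standard error 0.04, adjusted p = 0.0867, edgeR). ATP5F1B was called lower in 5 of 17 alternative settings, DESeq2 among them, and in 1 of 6 fits with a single library left out. The alpha subunit gene ATP5F1A, with a log2 fold change of -0.08 (adjusted p = 0.139), was likewise called by DESeq2 and not by edgeR. ATP5F1C, the gamma subunit at chr10:7788129-7807815 (plus strand), had 197, 189.6 and 208 CPM in control cultures and 177, 189 and 175 CPM on overexpression. Overexpression replicate 2 came close to control replicate 2 without reaching it, and the call was at the edge of the threshold (log2 fold change -0.14, standard error 0.04, adjusted p = 0.0499). ATP5F1C was called in 8 of 17 alternative settings and in 2 of 6 fits with a single library left out.

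The c subunit is encoded by ATP5MC1, ATP5MC2 and ATP5MC3, which differ in their import sequences and give the same mature protein. ATP5MC1 lies at chr17:48892765-48895871 (plus strand), ATP5MC2 at chr12:53632726-53677408 (minus strand) and ATP5MC3 at chr2:175176258-175184607 (minus strand). To show how far reads can tell these genes apart, the first 90 bases of the last 75 codons, which encode the mature protein, are given below from GENCODE 29 transcripts, 5′ to 3′, with capitals at the positions where the genes are not all alike.
ATP5MC1, chr17:48895222-48895311, plus strand: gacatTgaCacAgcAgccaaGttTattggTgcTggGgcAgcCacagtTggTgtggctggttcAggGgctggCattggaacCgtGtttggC
ATP5MC2, chr12:53669171-53669260, minus strand: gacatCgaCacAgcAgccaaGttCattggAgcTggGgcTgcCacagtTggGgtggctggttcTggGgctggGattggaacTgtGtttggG
ATP5MC3, chr2:175179080-175179169, minus strand: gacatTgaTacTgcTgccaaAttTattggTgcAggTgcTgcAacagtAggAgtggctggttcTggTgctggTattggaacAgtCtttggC

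Over the full 225 bases the genes differed at 52 positions, 19 of them in the stretch shown, and these codons translate identically in all 3. ATP5MC1 shared 88.9% of these bases with ATP5MC2 and 81.3% with ATP5MC3. ATP5MC1 had 196, 189.7 and 204 CPM in control cultures and 156, 159 and 153 CPM on overexpression. Every overexpressing culture was well below every control culture, and ATP5MC1 fell by 20.6% (log2 fold change -0.33, standard error 0.04, adjusted p = 9.86e-06, edgeR). ATP5MC3 had 394, 375 and 394 CPM in control cultures and 339, 353 and 335 CPM on overexpression. Again the conditions were separate, and ATP5MC3 fell by 11.7% (log2 fold change -0.18, standard error 0.04, adjusted p = 0.00246). ATP5MC2 had 167, 171 and 182 CPM in control cultures and 165, 178 and 159 CPM on overexpression. Its conditions overlapped and it was not called (log2 fold change -0.05, standard error 0.05, adjusted p = 0.546). Its log2 fold change was -0.08 without control replicate 1, -0.02 without control replicate 3, -0.10 without overexpression replicate 2 and -0.02 without overexpression replicate 3, not called in any of these fits. Together the 3 genes summed to 757, 736 and 780.02 CPM in control cultures and 659.6, 690.2 and 647 CPM on overexpression, without overlap. The share of ATP5MC1 in this sum was 25.9% ± 0.166 (SD, n = 3) in control cultures and 23.4% ± 0.286 (SD, n = 3) on overexpression. The share of ATP5MC2 was 22.9% ± 0.700 and 25.1% ± 0.550. Pseudogene rows of ATP5MC1 held 0.723% as many counts as the gene.

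**Figure D3:**
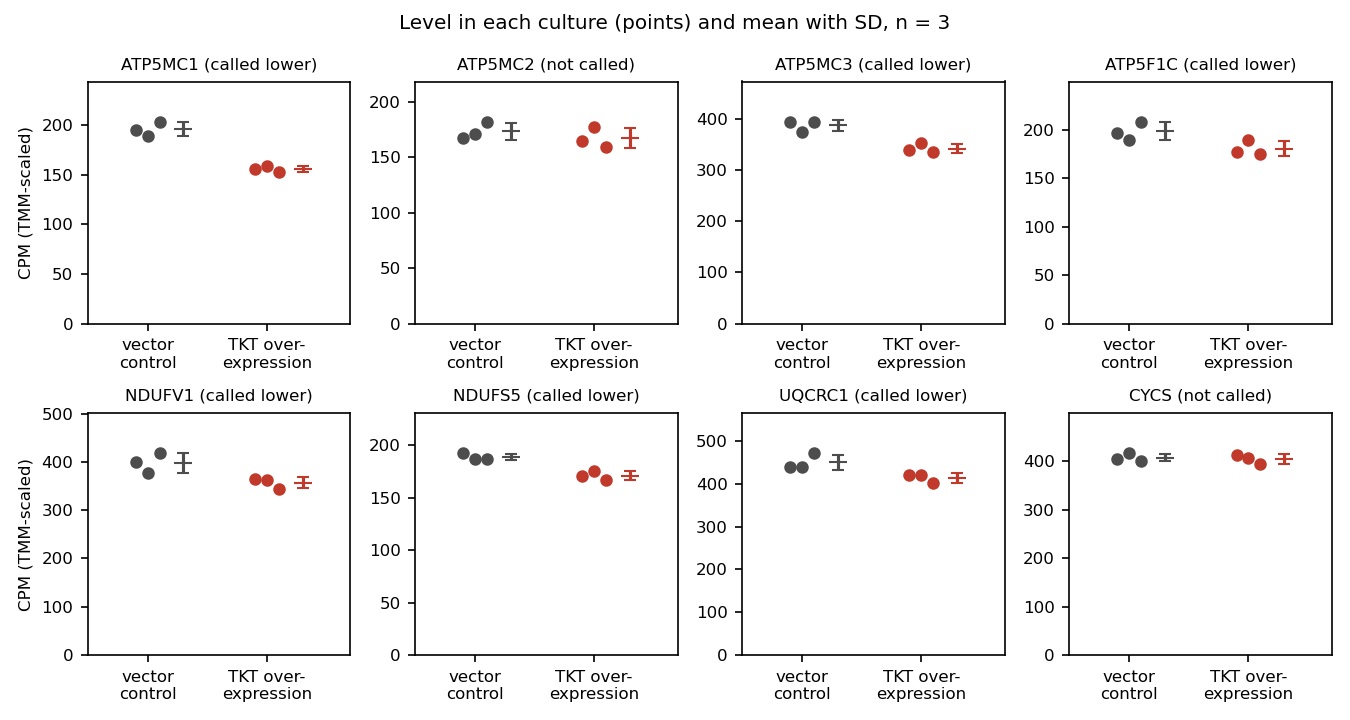
CPM of the 6 called members and of ATP5MC2 and CYCS in each culture, with vector control in grey, TKT overexpression in red, and the mean with SD of 3 cultures beside the points. All axes start at 0. ATP5MC1 falls from 196 to 156 CPM on average, while the cultures of ATP5MC2 and CYCS overlap.

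The members spanned a wide range of levels. Over the tested members, mean FPKM ran from 0.0311 for NDUFB9 to 641 for ATP5F1B, with a median of 29.5 against 3.52 over all tested genes. The gene length implied by the deposited values was within 10% of the GENCODE 29 exon union for 51 of 74 members. For NDUFB9 the implied length was 16.6 kb against a union of 4106 bases. The union was 2.06 times as long as the principal transcript in the median member, so FPKM between members is approximate. Below 5 CPM lay 11 members, among them subunits that complex I requires. NDUFS3, a core subunit, had 0, 0 and 3 counts in control cultures and 0, 0 and 0 on overexpression. NDUFA3, an accessory subunit, had 1 count in all 6 libraries, and neither gene passed the filter. NDUFB9 had between 12 and 22 counts, NDUFA7 between 6 and 22, and NDUFA11 between 29 and 55. NDUFV2, a core iron-sulfur subunit, had between 45 and 87 counts, while a row named as its pseudogene, NDUFV2P1, held 585 over the 6 libraries against 376. The standard errors of NDUFB9 (0.48), NDUFA7 (0.54), NDUFA11 (0.30) and NDUFV2 (0.26) on the log2 scale were near to or larger than the largest called change.

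Low values of this kind were also seen in other lists of genes that every cell uses. Of 85 cytosolic ribosomal protein genes 8 lay below 5 CPM, and of 76 mitochondrial ones 5. In GENCODE 29, 8 of the 11 low members shared at least 5% of their exonic bases with another gene, as did 25 of 63 other members. For NDUFS3 the share was 22.4%, mostly with PTPMT1, and for NDUFB9 21.0%, mostly with MTSS1. SDHB and UQCRC2 shared 0%. The part of such overlaps in the low counts was not tested.

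**Figure D4:**
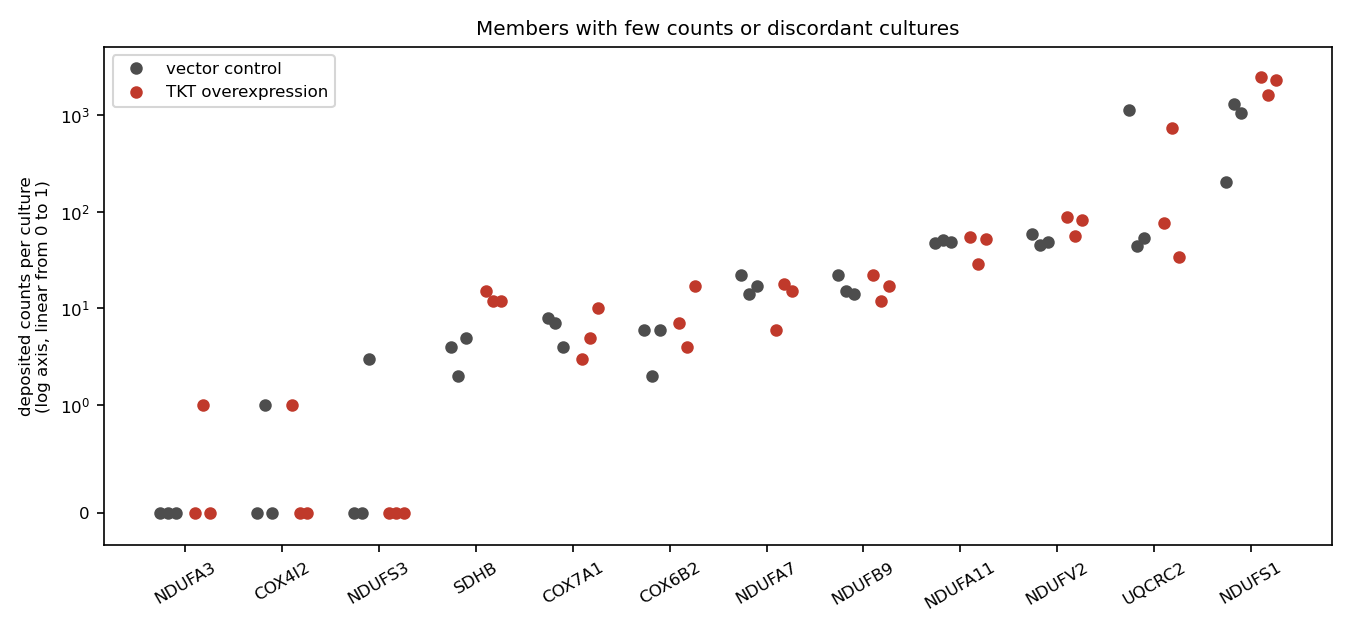
Deposited counts in each culture for members with few counts or with cultures that disagree, on a log axis that is linear between 0 and 1, with vector control in grey and TKT overexpression in red. NDUFS3 reaches at most 3 counts, and UQCRC2 spans 34 to 1130 over the 6 cultures.

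The partners of the members were described by lists of their own. The 13 subunits encoded in mitochondrial DNA had a median log2 fold change of -0.05, the same to 2 decimals as the nuclear members, and 11 lay below 0. Of these, 1, MT-ND2 of complex I, was lower (log2 fold change -0.14, standard error 0.04, adjusted p = 0.017, edgeR). It was called in 13 of 17 alternative settings and in 3 of 6 fits with a single library left out. DESeq2 called 2 lower, 3 were lower at an unadjusted p under 0.05 in edgeR, and 4 of 13 were lower without overlap, beside the 13.9% of all tested genes. In the other direction edgeR, DESeq2 and limma called 0, and 0 had an unadjusted p under 0.05. Their summed level was 60606, 60033 and 58165 CPM in control cultures and 58118, 58855 and 55918 CPM on overexpression, with overlap. Nuclear subunits that the symbol rule misses, such as ATP5PB and NDUFAB1, gave 0 calls in 7 tested genes with edgeR, DESeq2 or limma and a median log2 fold change of -0.04, with an unadjusted p under 0.05 in 1 higher and 1 lower gene. Among 61 tested assembly factors, which build the complexes without staying in them, 2 were higher and 3 lower. BCS1L, which inserts the Rieske protein into complex III, had -0.26 on the log2 scale (adjusted p = 0.00257), FOXRED1, a complex I factor, -0.20 (0.0166), and SCO1, which delivers copper to complex IV, -0.17 (0.0362). The higher ones were TMEM242, an ATP synthase factor (0.28, adjusted p = 0.0286), and DMAC2, a complex I factor (0.19, 0.0227). Of these, BCS1L was called in 17 of 17 alternative settings, DMAC2 in 13, FOXRED1 and TMEM242 in 11 each and SCO1 in 7. With single libraries left out, SCO1 was called in 0 of 6 fits and TMEM242 in 1.

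The TCA cycle and pyruvate dehydrogenase, which supply the chain with NADH and succinate, had 3 lower genes of 26 (11.5%, beside 4.94% of all tested genes). Their median log2 fold change was -0.07. Without overlap 6 genes were lower (23.1%, beside 13.9%) and 1 higher (3.85%, beside 14.1%). In this list 0 genes were higher by edgeR, DESeq2 or limma and 1 at an unadjusted p under 0.05. The lower genes were OGDH, a subunit of the oxoglutarate dehydrogenase complex (-0.22, edgeR adjusted p = 0.00537), CS, citrate synthase (-0.16, 0.00853), and PDK3, a kinase that inhibits pyruvate dehydrogenase (-0.33, 0.0134). OGDH was called in 17 of the 17 alternatives, CS in 15 and PDK3 in 11. Mitochondrial ribosomal proteins, which translate the mitochondrially encoded subunits, had 3 higher genes, MRPL10, MRPL58 and MRPS30, and 2 lower, MRPL20 and MRPS25, of 74 tested, with a median of -0.01. Among these, MRPL10 was called in 17 alternatives, MRPL58 in 16, MRPL20 in 14, MRPS30 in 11 and MRPS25 in 3, DESeq2 not among them. Of 83 cytosolic ribosomal protein genes 0 were called in edgeR, with 2 higher and 1 lower at an unadjusted p under 0.05 and 1 higher in DESeq2, and their median was 0.01. Regulators of mitochondrial biogenesis had 1 higher gene of 24, MYC, with 3456, 3036 and 3608 counts in control cultures and 4547, 3804 and 4010 on overexpression. The regulators summed to 1762, 1757 and 1783 CPM in control cultures and 1722, 1749.95 and 1724 CPM on overexpression, lower without overlap. Their median log2 fold change was -0.02, and 13 of 24 lay below 0. Single regulators without overlap were 5 higher and 5 lower, beside 14.1% and 13.9% of all tested genes. In CPM all overexpressing cultures of MYC were above all control cultures (log2 fold change 0.21, standard error 0.05, adjusted p = 0.0053, edgeR). MYC was called in 17 of 17 alternative settings. The study, which measured c-Myc mRNA by qRT-PCR, reports that TKT does not regulate it at that level, and the difference was not examined here. NRF1 (-0.12), GABPA (0.00), ESRRA (-0.09) and TFAM (-0.07) on the log2 scale were not called. PPARGC1A, a coactivator of this program, had at most 2 counts in any culture and did not pass the filter.

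**Figure D5:**
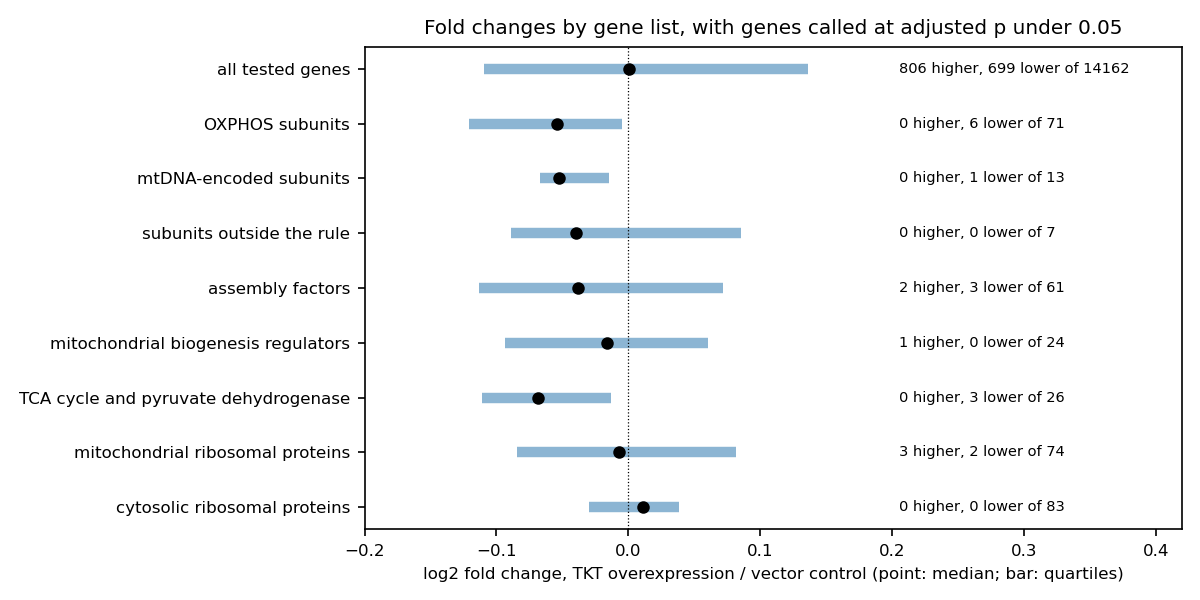
Median (point) and quartiles (bar) of the log2 fold change, TKT overexpression over vector control, for the OXPHOS subunits, related lists and all tested genes, with the number of genes called in each direction by edgeR. The medians of the nuclear and the mitochondrially encoded subunits lie at -0.05 and -0.05, and that of the TCA cycle list at -0.07.

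Markers of other cell types were summed as well. Of 4 fibroblast markers, 2 passed the filter and their summed level was at most 3.08 CPM in any culture, mostly from PDGFRB, with COL1A2 and LUM at means of 0.667 counts each. Endothelial markers summed to at most 20.6 CPM, nearly all from PECAM1, and striated muscle markers to at most 11.9 CPM, nearly all from TNNT1. These lists had 0 genes called by edgeR, DESeq2 or limma and 0 at an unadjusted p under 0.05. Leukocyte markers summed to 154, 161 and 163 CPM in control cultures and 126, 122 and 129 CPM on overexpression, of which LYZ, lysozyme, made up 94.5%. The sums did not overlap, and LYZ, with a mean of 135 CPM, was above the median tested gene at 19.8 CPM. LYZ was lower on overexpression (log2 fold change -0.35, edgeR adjusted p = 1.71e-05). The only other leukocyte marker that passed the filter had a log2 fold change of -0.14 and was not called, while CD3E and CD68 had means under 1 count. The part of LYZ in the results was not tested.

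Promoters of the members were compared by motif, since OXPHOS genes are known to share binding sites for nuclear respiratory factors. Windows from RefSeq on GRCh38.p14, 250 bases before to 50 after each start, were matched for 59 of 76 members and searched on both strands. The NRF1 motif GCGCANGCG was in a window of 20 members (33.9%), against 9.02% of all 27305 genes. These are all genes with a window, expressed in these cells or not, so the members were not compared with other expressed genes. The ETS family motif CCGGAAG, which GABPA binds, was in 18 (30.5%, against 12.2%), and the YY1 motif AAGATGG in 14 (23.7%, against 7.11%). The E-box CACGTG, a site for MYC and other factors, was in 6 (10.2%, against 8.77%), and the TATA box TATAAA in 5 (8.47%, against 14.0%). No matches of different motifs overlapped in the members. Of the called members, ATP5F1C, ATP5MC1, NDUFV1 and UQCRC1 had a window, and ATP5MC3 and NDUFS5 had none matched. UQCRC1 and ATP5F1C held the NRF1 motif, UQCRC1 also the YY1 motif, ATP5MC1 the E-box, and NDUFV1 none of the motifs. The 60 bases before the start of UQCRC1 and ATP5F1C, and 30 bases around the start of ATP5MC1, are given 5′ to 3′ to show these matches in the promoters of called members, with the NRF1 motif (UQCRC1, ATP5F1C) or the E-box (ATP5MC1) in capitals.
UQCRC1, chr3:48609647-48609706, minus strand: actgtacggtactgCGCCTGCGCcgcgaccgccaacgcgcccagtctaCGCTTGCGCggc
ATP5F1C, chr10:7788117-7788176, plus strand: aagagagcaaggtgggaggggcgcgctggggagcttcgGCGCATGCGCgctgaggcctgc
ATP5MC1, chr17:48892772-48892801, plus strand: gaatggagaaggtccaggaCACGTGggtgg

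In UQCRC1 the NRF1 motif occurs at separate places, and in ATP5F1C its matches on both strands overlap. A match of letters is a description of the window, and binding was not measured.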

How the data were processed

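RNA of 6 libraries, 3 of TKT-overexpressing and 3 of vector control cells, was compared. The authors trimmed paired reads with fastp 0.22.0 and aligned them with HISAT2 2.1.0 to hg38, per their processing notes, and the deposited counts are whole numbers per gene symbol from featureCounts. The deposited FPKM were computed by the authors from gene lengths that the table does not give. Options for strand and reads with several matches are not given in the sources used here. The count columns named after TKT were taken as the overexpression libraries in order of their numbers.

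Counts were fitted in edgeR 4.0.16 under R 4.3.3 with condition alone, after filterByExpr (minimum count 10) and TMM scaling, by robust quasi-likelihood tests on 14162 genes. The common biological coefficient of variation was 0.113. P-values were adjusted over all tested genes (Benjamini and Hochberg), and calls are those with an adjusted p under 0.05. CPM are scaled by TMM, SD is the sample standard deviation of 3 libraries, and libraries were checked for copies of each other. Members were named in the text when called, when their cultures did not overlap or disagreed, when they had few counts, or by their role. Alternatives were DESeq2 1.42.0, limma 3.58.1 on log2 FPKM, other scalings and filters, a gene length correction, a replicate block, a stricter threshold and leaving out each library. The fits were tested on simulated data in which every planted change was larger than that of any called member. That test therefore does not cover changes of the size called in the members. Gene positions, exons and coding sequences came from GENCODE 29 and promoter windows from RefSeq (GRCh38.p14). The members and lists were chosen with earlier results of these data known.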

Additional observations from a re-analysis of the deposited data

How the results depend on the processing

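The count of lower members was 6 in the main fit, 10 in DESeq2, 3 in limma on FPKM with 1 or 0.1 added, 2 at an adjusted p under 0.01, and 2 to 12 when single libraries were left out. Of all tested genes, 4.94% were lower in the main fit, 6.88% in DESeq2, 2.34% in limma and 2.31% to 5.26% when single libraries were left out, and 274 genes were lower at an adjusted p under 0.01. The count of higher members was 0 throughout, except for 1 in limma with 0.1 added. The count of all called genes was 1505, and 827 and 826 in limma with 1 and 0.1 added, and 791 to 1586 when single libraries were left out. The causes were not tested. ATP5MC1 and ATP5MC3 were called in 17 of 17 alternatives, NDUFS5 in 13, NDUFV1 in 11, and UQCRC1 and ATP5F1C in 8 each. The median log2 fold change of the members ran from -0.08 to -0.03. In no alternative was a member past both thresholds of the study. Of the called genes named in the report, none changed its direction. ATP6V1H was not followed over the alternatives and is left out of this statement. Among uncalled values, the medians ran from -0.03 to 0.03 for complex II, -0.06 to 0.02 for complex IV and -0.03 to 0.01 for CYCS, and either sign was also found for NDUFB9 (-0.25 to 0.14), COX4I1 (-0.04 to 0.03), COX7B (-0.04 to 0.06), COX8A (-0.07 to 0.02) and GABPA (-0.04 to 0.03). TKT ran from 4.22 to 4.29 on the log2 scale.

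With the replicate number as a replicate block, 2 members and 1.88% of all tested genes were lower, and 697 genes were called in all. Deviations from the condition means correlated at 0.0106, -0.0937 and 0.0525 between libraries numbered 1, 2 and 3 over 11233 genes, and of the 6 libraries only vector control 3 correlated best with its own number, so the samples share only a number. Members with few counts, 11 under 5 CPM, limit what could be called.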

Other observations

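Pseudogenes named after members filled 55 rows for 31 members, of which 13 rows passed the filter and 0 were called by edgeR, DESeq2 or limma, with 0 at an unadjusted p under 0.05 in edgeR. Their counts exceeded 5% of those of the gene they are named after for 4 members, NDUFA3, NDUFV2, SDHA and COX6A1. Between libraries of the same condition, chi-square per degree of freedom over genes ran from 7.27 to 10, and between conditions from 31.3 to 38.6, or from 13.7 to 19.3 without TKT itself. In the KEGG annotation of the deposited table, 74 of the 76 members carry the pathway of oxidative phosphorylation, all but ATP5MJ and ATP5MK. The pathway names 49 further genes, of which 44 were tested, 1 was higher, ATP6V1H, a subunit of the vacuolar proton pump, and 1 lower, MT-ND2.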
